A study of Mus musculus with 2 samples.

Results

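The mitotic genes described here are 36 genes taken by symbol from a list, and all 36 were found among the 31053 genes of both count matrices. They cover entry into mitosis, chromosome structure, centromeres and kinetochores, the spindle checkpoint and its kinases, the start of anaphase, the spindle, and cytokinesis. Single-cell RNA was sequenced from whole mouse uterus on gestational day 4, with 1 library labelled Mettl14 d/d and 1 labelled Mettl14 f/f. Mettl14 encodes a subunit of the enzyme complex that methylates adenosine in messenger RNA. By the usual notation d/d stands for the deleted and f/f for the floxed allele. The Cre driver, the exons removed, the age of the mice and the number pooled per library are not given in the sources used here. With 1 library per genotype no test across animals could be made, and every interval is exact, at 95%, and covers counting error only.

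Mitotic genes are transcribed mainly from the end of DNA replication until division, and many of their products are degraded as cells leave mitosis, so their transcripts mark cells that are in or near division. In resting cells most of them are held silent by the DREAM complex at their promoters, and FOXM1 and B-MYB drive them when cells approach mitosis. In the mouse uterus around implantation, epithelial division ceases while stromal division increases under progesterone and estrogen, which makes the cell class in which these genes are found a common readout of uterine state.

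In d/d, 6661 barcodes with 44745031 UMIs were read, and 5977 cells were kept, with a median of 5217 UMIs per cell. In f/f, 8164 barcodes with 55080123 UMIs were read, and 7095 cells were kept, with a median of 6085 UMIs. The libraries shared 8 barcode sequences. Mettl14 itself stood at 5.53 CPM (counts per 1000000, here of UMIs) in d/d and 15.5 CPM in f/f over all kept cells. Stromal cells had 2.46 CPM in d/d and 14.6 CPM in f/f, whereas blood endothelial cells had 18.3 CPM in d/d and 18.7 CPM in f/f. These reads come from the 3′ end of the transcript, which may lie outside the deleted part, so they do not check the labels fully. Cells were grouped with the cell cycle genes left out of the clustering, and clusters were named from marker genes. Most stromal cells sat in different clusters in the 2 libraries, cluster 3 with 1118 d/d cells and clusters 0 and 1 with 1877 and 1788 f/f cells, so that stroma is compared as a class. The epithelium likewise fell apart by library, since 141 of 144 d/d cells formed a sub-cluster of their own that was neither luminal nor glandular by its markers, against 73 luminal and 105 glandular cells in f/f.

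A cell was called cycling when at least 4 of the 36 genes had a UMI in it, which separates how many cells divide from how strongly each expresses the genes. Cycling cells were a smaller share of their class in d/d in stroma, pericytes, blood endothelium and smooth muscle, and a larger share in epithelium. Over all kept cells, 257 of 5977 d/d cells (4.30%) and 893 of 7095 f/f cells (12.6%) were cycling. Smooth muscle, a class with little division, gave 3 of 1478 d/d cells (0.203%) and 6 of 448 f/f cells (1.34%), a ratio of 0.152 (0.0245 to 0.710), at median depths of 5658 UMIs in d/d and 4122 UMIs in f/f. Since this share differed between libraries itself, it gives no common background for the other classes.

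In stroma 87 of 1707 d/d cells (5.10%, interval 4.10 to 6.25) and 447 of 4701 f/f cells (9.51%, 8.69 to 10.4) were cycling, a ratio of 0.536 (0.421 to 0.676). The median depths of the class were near each other, 6954 UMIs in d/d and 6601 UMIs in f/f, and with each cell thinned to 2000 UMIs the shares were 3.20% in d/d and 5.95% in f/f. Thinning left out 112 d/d and 244 f/f stromal cells that were shallower. At the threshold itself, 15 d/d and 152 f/f stromal cells had exactly 3 of the genes, and 7 d/d and 69 f/f cells had exactly 4, with medians of 5 UMIs of these genes in the d/d and 4 in the f/f cells just inside it. A steep drop between 1 and 4 genes and a long flat tail to more than 30 genes is seen in the curves of genes per cell.

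The cycling share was also lower in d/d in pericytes, the mural cells of small vessels. Of the d/d pericytes 18 of 1192 (1.51%, 0.897 to 2.38) were cycling, against 78 of 379 f/f pericytes (20.6%, 16.6 to 25.0), a ratio of 0.0734 (0.0413 to 0.124). All cycling pericytes lay in cluster 4, led by Rgs5 and Ndufa4l2, where they made up 18 of 728 d/d cells (2.47%) and 78 of 332 f/f cells (23.5%), a ratio of 0.105 (0.0593 to 0.177). In the other pericyte cluster, led by Mustn1 and Rasl11a, 0 of 464 d/d cells were cycling, which allows a share of up to 0.647%, and 0 of 47 f/f cells, which allows up to 6.38%. Since this cluster held more of the d/d than of the f/f class, the class ratio lies further from 1 than that of cluster 4. Whether its cells are pericytes or other mural cells was not tested. The cycling pericytes carried the summed pericyte markers at 9418 CPM in d/d and 10351 CPM in f/f.

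Blood endothelium differed in the same direction. Of its cells 67 of 603 in d/d (11.1%, 8.72 to 13.9) and 168 of 487 in f/f (34.5%, 30.3 to 38.9) were cycling, a ratio of 0.322 (0.239 to 0.430), and 8.40% in d/d and 19.2% in f/f after thinning. Both of its main clusters took part. Cluster 9, led by Adgrl4 and Podxl, had 22.4% cycling cells in d/d and 45.4% in f/f, and cluster 11, led by Selp and Vwf, had 2.88% in d/d and 23.2% in f/f. Mettl14 was at close to equal levels in this class, as given above. It was lower in d/d epithelium (4.90 CPM in d/d, 19.9 CPM in f/f), pericytes (4.25 and 13.5 CPM) and smooth muscle (2.53 and 18.9 CPM). Those values rest on 20 to 43 UMIs each. Whether the Mettl14 level of a class bears on its cycling share was not tested.

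Epithelium went the other way. Of the d/d epithelial cells 49 of 144 (34.0%, 26.4 to 42.4) were cycling, against 10 of 178 f/f cells (5.62%, 2.73 to 10.1), a ratio of 6.06 (3.03 to 13.4). All 49 d/d cells belonged to the sub-cluster that was neither luminal nor glandular, and the 10 f/f cells were 8 of 73 luminal and 2 of 105 glandular cells. Those 10 f/f cells had a median of 25260 UMIs, against 9214 UMIs in the other f/f epithelial cells. Of them 5 had exactly 4 of the genes, at a median of 28548 UMIs, and whether they were dividing was not tested. The d/d epithelial cells were deeper, with a class median of 15925.5 UMIs in d/d and 9289 UMIs in f/f and a median of 46925 UMIs in the d/d cycling cells. Thinned to 2000 UMIs, 16 of 141 d/d cells (11.3%) and 0 of 170 f/f cells were cycling, which gives a ratio of 6.43 with f/f set to the floor of 3 cells. The exact interval of the ratio reached down to 4.65. The ratio was 2.39 when 3 genes were enough and 16.5 when 6 were needed.

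**Figure D1:**
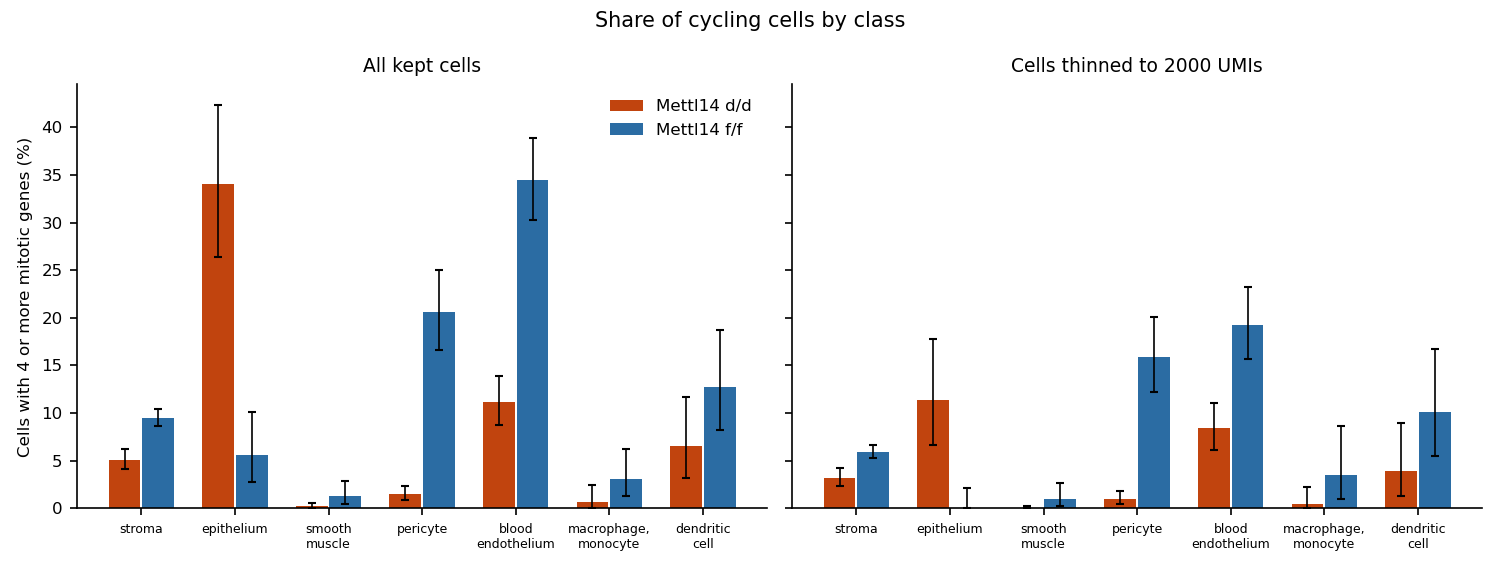
Share of cells with 4 or more mitotic genes detected in each class, in percent, in Mettl14 d/d and Mettl14 f/f (1 library each), for all kept cells on the left and for cells thinned to 2000 UMIs on the right. Bars are shares and lines exact 95% intervals from counting alone; the d/d bar is the taller of its pair only in epithelium, at 34.0% in d/d and 5.62% in f/f.

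Cells with 10 or more of the genes are part of those with 4 or more, so their shares, given without thinning, are no separate check. Of the pericytes 1.01% in d/d and 14.2% in f/f had 10 or more of the 36 genes, and of the epithelial cells 20.1% in d/d and 0.562% in f/f.

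**Figure D2:**
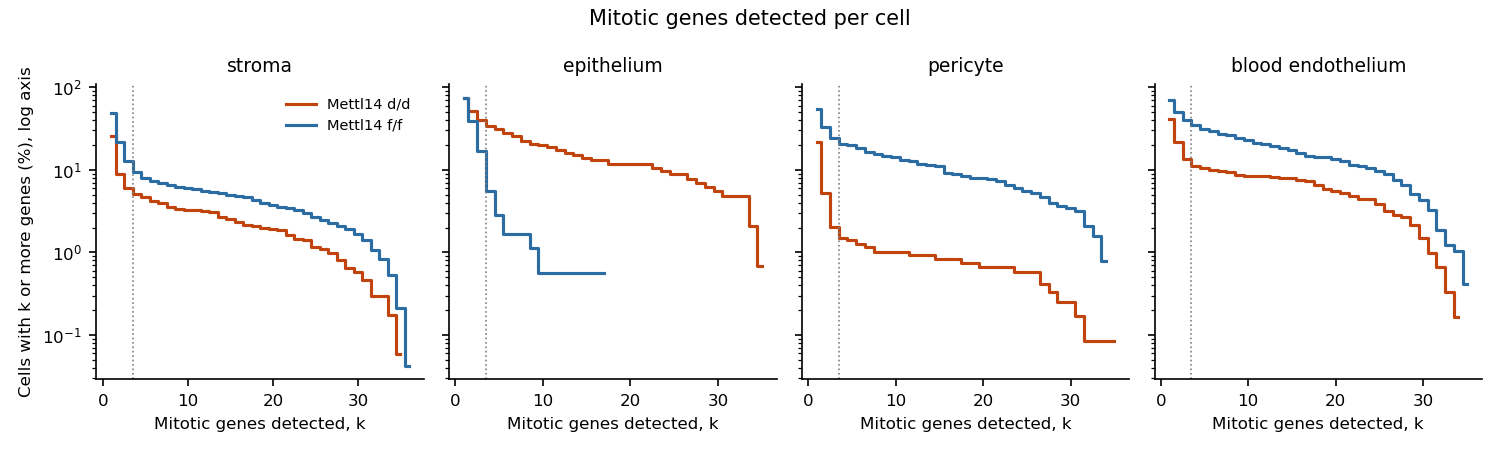
Share of cells, in percent on a log axis, in which k or more of the 36 mitotic genes had a UMI, for stroma, epithelium, pericytes and blood endothelium in Mettl14 d/d and Mettl14 f/f (1 library each). The dotted line marks the threshold of 4 genes; the d/d curve lies above the f/f curve in epithelium from 2 genes on, and below it in the other 3 classes at the thresholds up to 30 genes.

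Cycling cells also came from different classes in the libraries. Among the 257 d/d cycling cells, stroma made up 33.9%, blood endothelium 26.1%, epithelium 19.1%, pericytes 7.004% and natural killer or innate lymphoid cells 2.33%. Among the 893 f/f cycling cells, stroma made up 50.1%, blood endothelium 18.8%, natural killer or innate lymphoid cells 14.8%, pericytes 8.73% and epithelium 1.12%. These percentages depend on how many cells of each class were captured as well as on how many of them were dividing.

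Summed over the 36 genes, the level in a class followed the cycling share. Stroma had 350.1 CPM in d/d and 767 CPM in f/f (log2 ratio -1.13), pericytes 257 CPM in d/d and 1964 CPM in f/f (-2.93), blood endothelium 736 CPM in d/d and 1655 CPM in f/f (-1.17), and epithelium 735 CPM in d/d and 219.6 CPM in f/f (1.74). In pericyte cluster 4 alone the log2 ratio was -2.42. In pericytes and blood endothelium the level inside cycling cells was close between libraries, at 5740 CPM in d/d and 5907 CPM in f/f pericytes (ratio 0.972, 0.906 to 1.04) and at 3140 CPM in d/d and 2947 CPM in f/f endothelium (1.07, 1.02 to 1.11). In those 2 classes the difference in level therefore lay mostly in the number of cycling cells. In stroma the cycling cells themselves were lower as well, at 3550 CPM in d/d and 4799 CPM in f/f (0.740, 0.715 to 0.765). The d/d cycling cells of stroma were the deeper ones, with a median of 13440 UMIs in d/d and 9053 UMIs in f/f. Since the threshold for cycling counts genes with a UMI, a deeper cell can reach it at a lower CPM. The part of depth in the lower d/d level was not tested. In epithelium cycling cells had 1275 CPM in d/d and 451 CPM in f/f (2.83, 2.35 to 3.42), but the f/f value rests on 10 cells, and the ratio was reversed, at 0.827, when a sub-cluster of 21 d/d and 106 f/f cells led by stromal genes was kept in the class. With those cells kept, the ratio of the epithelial level as a whole was 1.84 in place of 3.35. Without them, Mki67 and Top2a made up 189 CPM of the d/d and 155 CPM of the f/f level in cycling epithelium, where the f/f part was mostly Top2a.

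Cells below the threshold differed too. Their summed level was 40.2 CPM in d/d and 94.5 CPM in f/f stroma, 63.8 CPM in d/d and 143 CPM in f/f pericytes, 72.7 CPM in d/d and 139 CPM in f/f blood endothelium, and 73.5 CPM in d/d and 187 CPM in f/f epithelium. Smooth muscle cells below the threshold had 44.2 CPM in d/d and 81.9 CPM in f/f, so a lower level in d/d was common to all these classes. In epithelium Mki67 and Top2a together made up 37.0 CPM in d/d and 121 CPM in f/f of this level. Over all epithelial cells Mki67 had 158 UMIs in d/d and 6 in f/f, and Top2a 334 in d/d and 264 in f/f, so the f/f value is mostly Top2a. The part of free RNA in these values was not tested. In stroma 89.5% of the d/d and 89.4% of the f/f UMIs of these genes lay in cycling cells.

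**Figure D3:**
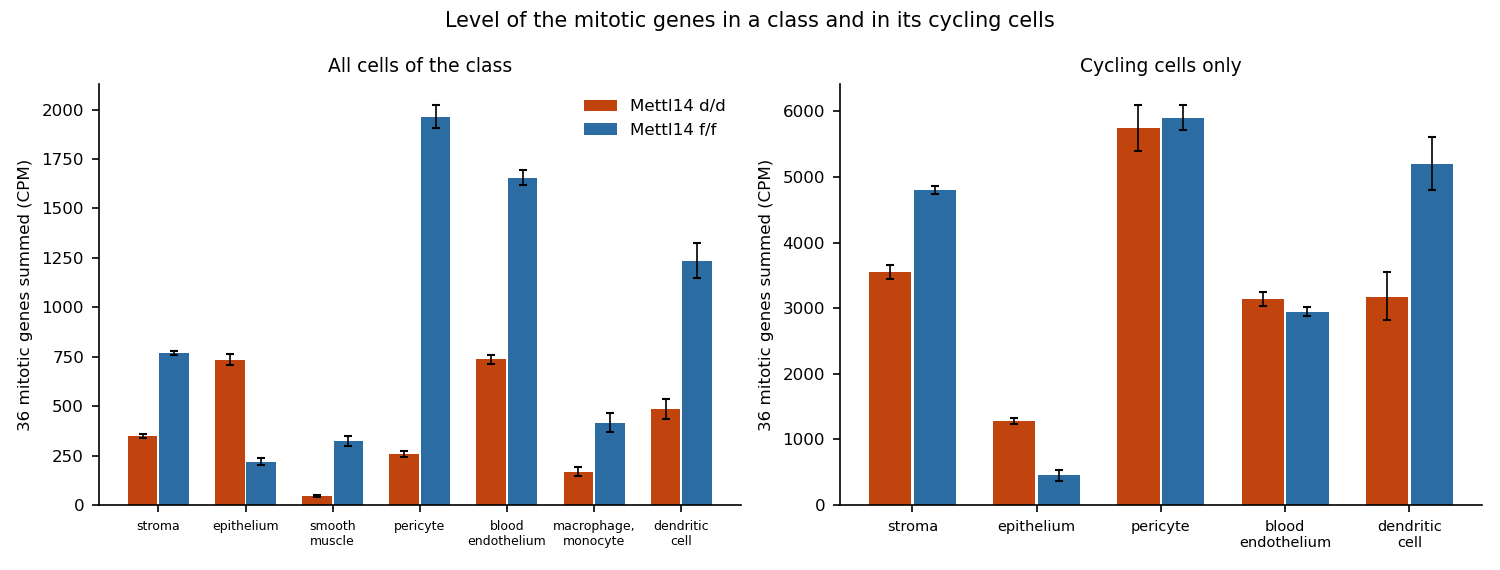
Summed level of the 36 mitotic genes in CPM in all cells of a class (left) and in its cycling cells only (right, classes with at least 10 cycling cells in each library), in Mettl14 d/d and Mettl14 f/f (1 library each); lines are exact 95% Poisson intervals. Pericytes differ on the left, with 257 CPM in d/d and 1964 CPM in f/f, and hardly on the right, with 5740 CPM in d/d and 5907 CPM in f/f.

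Most of the genes share letters in their promoters. Promoter sequences from RefSeq on build GRCm38.p6, from 250 bases before to 50 after the gene start, were found for 32 of the 36 genes, all but Ccna2, Aurkb, Tpx2 and Kif20a. Searched on both strands, TTTGAA, the core of the cell cycle genes homology region bound by the DREAM complex and by FOXM1 with B-MYB, was present in 26 of 32 (81.2%), against 20.2% of the 27025 genes of the table. CCAAT, the letters of the NF-Y box, was present in 25 (78.1%), against 41.1% of all genes, and both in 22 (68.8%), against 7.97% of all genes. Of the S-phase genes, 3 of 26 (11.5%) held TTTGAA and 16 (61.5%) held CCAAT. The promoters of the 4 members with the most UMIs among those with both motifs are shown 5′ to 3′ on the strand of the gene, with capitals marking TTTGAA or its reverse complement TTCAAA and CCAAT or its reverse complement ATTGG. Top2a, topoisomerase II alpha, which untangles chromosomes, lies at chr11:99024140-99024439 on the minus strand. Ube2c, the ubiquitin-conjugating enzyme of the anaphase-promoting complex, lies at chr2:164769679-164769978 on the plus strand. Cenpf, an outer kinetochore protein, lies at chr1:189688037-189688336 on the minus strand, and Mki67, the Ki-67 protein that coats mitotic chromosomes, at chr7:135716330-135716629 on the minus strand.
Top2a: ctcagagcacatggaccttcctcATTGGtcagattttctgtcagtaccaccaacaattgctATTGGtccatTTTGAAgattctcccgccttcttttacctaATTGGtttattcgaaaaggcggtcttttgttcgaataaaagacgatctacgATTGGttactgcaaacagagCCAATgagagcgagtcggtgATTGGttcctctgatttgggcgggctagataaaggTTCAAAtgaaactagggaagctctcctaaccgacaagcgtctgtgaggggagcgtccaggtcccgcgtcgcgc
Ube2c: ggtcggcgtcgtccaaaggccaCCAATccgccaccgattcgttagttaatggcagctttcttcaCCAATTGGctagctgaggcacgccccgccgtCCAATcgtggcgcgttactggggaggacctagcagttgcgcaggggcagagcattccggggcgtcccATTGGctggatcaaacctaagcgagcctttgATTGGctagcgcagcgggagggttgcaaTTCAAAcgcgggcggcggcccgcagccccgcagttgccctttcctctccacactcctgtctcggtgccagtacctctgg
Cenpf: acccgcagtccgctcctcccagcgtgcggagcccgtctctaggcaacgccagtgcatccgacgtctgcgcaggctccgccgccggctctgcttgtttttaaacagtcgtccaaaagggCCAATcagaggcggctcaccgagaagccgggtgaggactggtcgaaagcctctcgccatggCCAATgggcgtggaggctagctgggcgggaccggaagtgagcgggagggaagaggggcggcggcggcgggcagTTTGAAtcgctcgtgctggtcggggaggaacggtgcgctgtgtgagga
Mki67: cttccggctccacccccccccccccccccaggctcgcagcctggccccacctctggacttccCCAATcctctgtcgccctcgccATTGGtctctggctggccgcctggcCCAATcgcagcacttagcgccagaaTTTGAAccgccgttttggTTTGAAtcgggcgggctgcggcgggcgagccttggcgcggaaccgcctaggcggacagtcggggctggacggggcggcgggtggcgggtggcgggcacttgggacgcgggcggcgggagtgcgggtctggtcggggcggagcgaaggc
A match is a description of the letters in these windows and does not show binding.

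In stroma all 36 genes reached 50 UMIs in the library where they were higher, and 32 were at least 1.5-fold lower in d/d while 0 were higher. Over all 11777 genes measured in stroma, 20.5% were lower and 14.1% higher by the same rule, and the median log2 ratio was -1.21 for the mitotic genes and -0.16 for all genes. Among the cyclins that activate the kinase CDK1, Ccnb1 had 4.00 CPM in d/d and 14.8 CPM in f/f (log2 ratio -1.89, interval -2.33 to -1.48), Ccnb2 5.84 CPM in d/d and 18.3 CPM in f/f (-1.65) and Ccna2 8.38 CPM in d/d and 19.6 CPM in f/f (-1.23). The kinase gene Cdk1 itself stood at 16.9 CPM in d/d and 17.6 CPM in f/f (-0.06, -0.29 to 0.17). The cyclins were thus lower while their kinase was within counting error of the f/f level.

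The chromosome proteins Mki67 and Top2a were at 21.2 and 34.8 CPM in d/d and at 46.2 and 71.1 CPM in f/f stroma. The widest difference at centromeres and kinetochores was in Cenpf, with 16.7 CPM in d/d and 63.5 CPM in f/f (-1.93, -2.14 to -1.73), followed by Cenpe, a kinetochore motor, with 7.15 CPM in d/d and 20.3 CPM in f/f. All 7 genes of this role were lower, with Nuf2, a subunit of the NDC80 complex, the least so at 3.61 CPM in d/d and 5.49 CPM in f/f (-0.60). All 5 checkpoint and mitotic kinase genes were lower too, from Bub1 at -1.29 to Aurkb at -0.61. Plk1, the polo kinase of mitosis, had 3.69 CPM in d/d and 8.04 CPM in f/f (-1.12), Aurka, a spindle pole kinase, 3.23 CPM in d/d and 7.53 CPM in f/f (-1.22), and Spc25, a subunit of the NDC80 complex, 4.76 CPM in d/d and 9.25 CPM in f/f (-0.96).

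Partners within the chromosomal passenger complex differed. Birc5, survivin, stood at 32.7 CPM in d/d and 33.5 CPM in f/f (-0.03, -0.20 to 0.13), whereas Cdca8, borealin, had 5.30 CPM in d/d and 12.8 CPM in f/f (-1.27). Of the genes that bring on anaphase, Cdc20, an activator of the anaphase-promoting complex, had 5.38 CPM in d/d and 17.1 CPM in f/f (-1.67, -2.05 to -1.31), Ube2c 24.9 CPM in d/d and 57.3 CPM in f/f (-1.20), and Cdca3, a cell cycle gene whose product is degraded as cells leave mitosis, 7.76 CPM in d/d and 18.7 CPM in f/f (-1.26). Of the 8 spindle genes 6 were lower, among them Aspm, a spindle pole protein (-1.59), and Kif2c, a microtubule-depolymerising kinesin (-1.66), while Ckap2l (-0.54) and Kif4 (-0.51) missed the 1.5-fold mark. Nusap1, a microtubule-binding spindle protein, had 8.22 CPM in d/d and 23.6 CPM in f/f (-1.52), and Kif11, the kinesin that separates the spindle poles, 6.84 CPM in d/d and 17.8 CPM in f/f (-1.38). All 5 midzone and cytokinesis genes were lower, with Kif20a, a midzone kinesin, at 4.84 CPM in d/d and 16.2 CPM in f/f (-1.74), Anln, anillin of the cleavage furrow, at 7.15 CPM in d/d and 15.9 CPM in f/f (-1.15) and Kif23, a centralspindlin subunit, at -0.84.

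A lower share in d/d was also seen inside cluster 5, which held cells of both libraries. In this cluster, led by Clec3b and C3, 0 of 524 d/d cells were cycling, which allows a share of up to 0.573%, against 18 of 356 f/f cells (5.06%), and the summed level was 32.4 CPM in d/d and 691 CPM in f/f. Cluster 16 was itself led by cell cycle genes, so its cycling share follows partly from how it was formed and is a description only. It held 40 d/d and 131 f/f cells, of which 40 of the d/d and 113 of the f/f cells were cycling. Without it the stromal shares were 2.82% in d/d and 7.31% in f/f, and the summed level was 161.6 CPM in d/d and 574.5 CPM in f/f.

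In pericytes, both clusters pooled, 29 genes reached 50 UMIs in the higher library and all 29 were lower in d/d, against 21.9% lower and 15.9% higher of all 7458 genes measured, with a median log2 ratio of -3.01 for the mitotic and -0.11 for all genes. Since the minimum is met in the library where a gene is higher, this count describes the genes that passed and is no measure of the rest; with no minimum 36 of 36 were at least 1.5-fold lower. Hmmr, a spindle protein, had 3.67 CPM in d/d and 52.6 CPM in f/f (-3.84), Racgap1, a centralspindlin subunit, 4.64 CPM in d/d and 61.8 CPM in f/f (-3.73), and Ube2c 16.04 CPM in d/d and 165 CPM in f/f (-3.36, -3.73 to -3.01). The smallest difference was in Cenpa, the histone variant of centromeres, with 21.5 CPM in d/d and 88.3 CPM in f/f (-2.04). Cdk1 (-2.52) and Birc5 (-2.66), level in stroma, were lower here.

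In blood endothelium 34 genes reached the minimum and all 34 were lower in d/d, against 11.1% lower and 11.3% higher of all 8721 genes measured, with a median of -1.14 for the mitotic and -0.05 for all genes. Top2a had 62.0 CPM in d/d and 177 CPM in f/f (-1.52, -1.71 to -1.32), Cenpf 32.4 CPM in d/d and 94.3 CPM in f/f (-1.54) and Cenpe 14.5 CPM in d/d and 46.2 CPM in f/f (-1.67). The nearest to the f/f level were Cdc20, with 15.1 CPM in d/d and 24.4 CPM in f/f (-0.69), and Cdk1, with 39.7 CPM in d/d and 64.4 CPM in f/f (-0.70). Nuf2 and Ndc80 stayed below the minimum, with 28 and 35 UMIs in d/d and 48 UMIs each in f/f.

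In epithelium 16 genes reached the minimum, and 14 were at least 1.5-fold higher in d/d, against 17.3% higher and 22.8% lower of all 7013 genes measured, with a median of 3.19 for the mitotic and -0.06 for all genes. Nearly all of them passed through their d/d counts alone, so the count again describes only these genes; with no minimum 33 of 36 were higher. Ube2c had 390 UMIs and 95.5 CPM in d/d, and 15 UMIs and 6.93 CPM in f/f (3.78, 3.04 to 4.64). Cenpf had 54.6 CPM in d/d and 3.70 CPM in f/f (3.88), Cdk1 40.9 CPM in d/d and 2.77 CPM in f/f (3.88), Birc5 57.1 CPM in d/d and 6.93 CPM in f/f (3.04), and Prc1, which bundles midzone microtubules, 25.5 CPM in d/d and 3.24 CPM in f/f (2.98). Against the luminal cells of f/f alone 15 of 16 measured genes were higher, where 32.1% of all genes were higher and 18.8% lower, and against the glandular cells alone 14 of 15, where 21.6% of all genes were higher and 18.8% lower. In the d/d cycling epithelial cells the summed stromal markers stood at 92.1 CPM and the epithelial markers at 4761 CPM, against 94.2 and 5801 CPM in the other d/d epithelial cells.

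Top2a and Spc25 were the 2 measured genes that were not called. Spc25 had 62 UMIs and 15.2 CPM in d/d epithelium, and 25 UMIs and 11.6 CPM in f/f epithelium (0.39, -0.30 to 1.13), and 1 of the 25 f/f UMIs lay in a cell with 4 or more of the other 35 genes, against 51 of the 62 d/d UMIs. Top2a was lower in d/d but short of 1.5-fold, with 334 UMIs and 81.8 CPM in d/d epithelium and 264 UMIs and 122 CPM in f/f epithelium (-0.58, -0.82 to -0.34). Of the Top2a UMIs 80.2% in d/d and 6.06% in f/f lay in cells with 4 or more of the other 35 genes. Among epithelial cells with none of the other 35 genes, 11 of 48 d/d cells (22.9%) and 35 of 82 f/f cells (42.7%) had a Top2a UMI, out of 69 d/d and 86 f/f cells with one in all, while in stroma the same share was 0.782% in d/d and 3.23% in f/f. The f/f UMIs were divided over both parts, 133 in luminal and 131 in glandular cells. With Top2a left out of the count of genes, the ratio of epithelial cycling shares was 9.48.

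**Figure D4:**
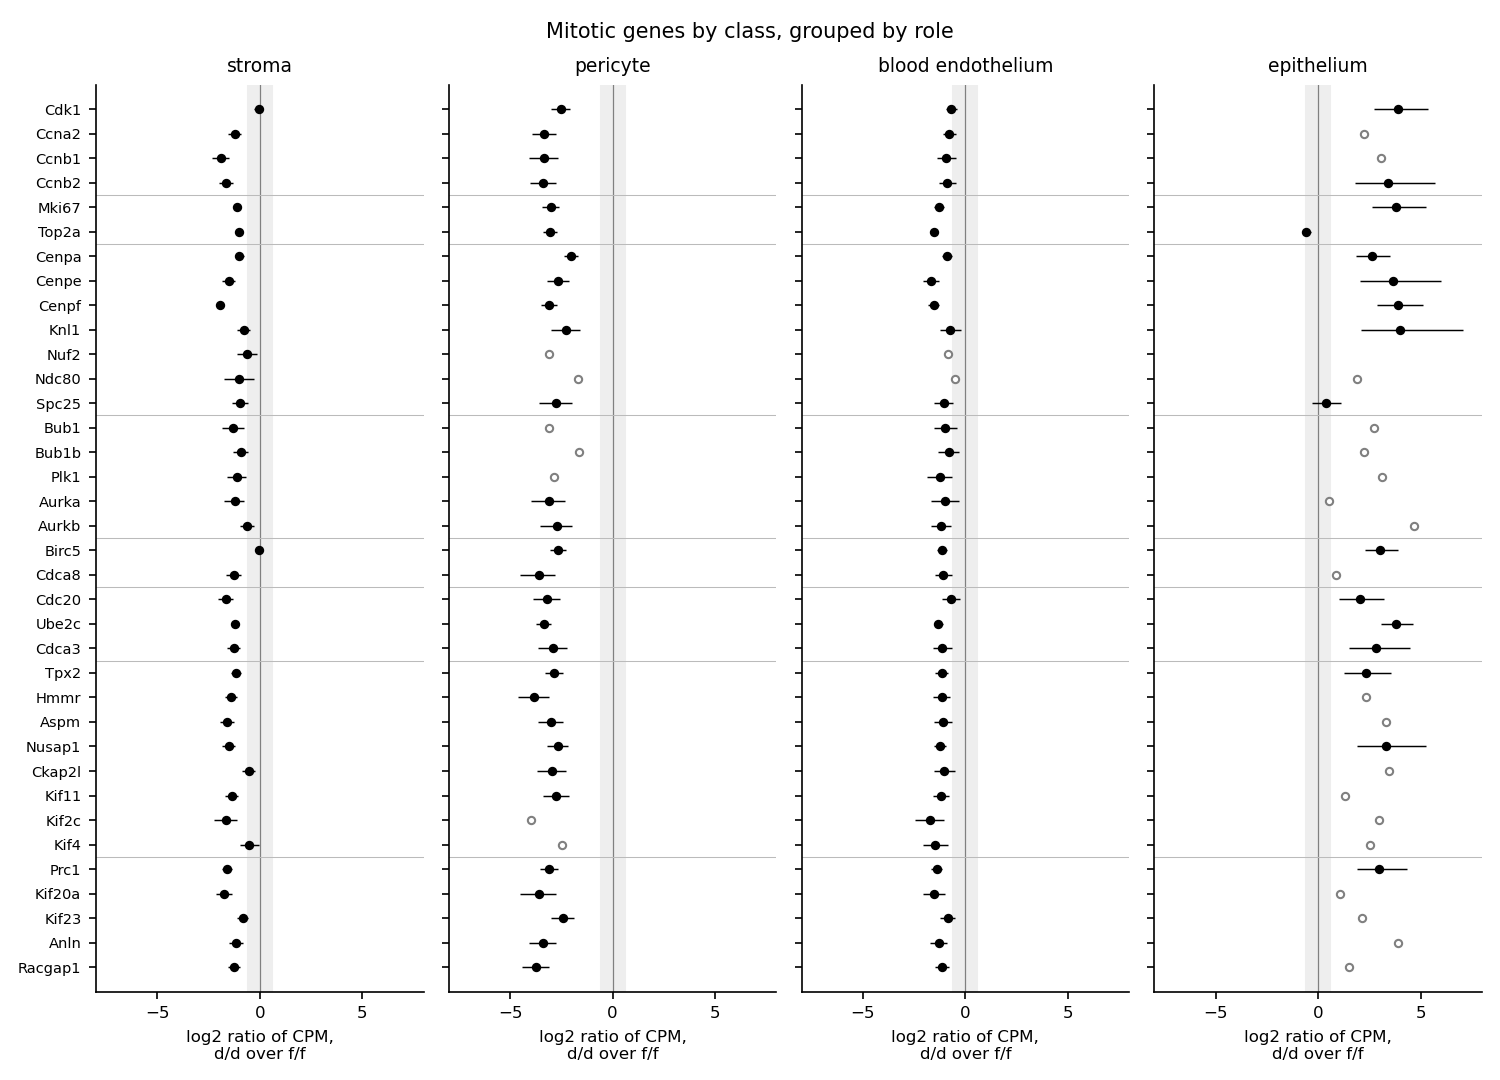
Log2 ratio of CPM, Mettl14 d/d over Mettl14 f/f (1 library each), for each of the 36 mitotic genes in 4 classes, with lines between genes of different roles. Filled points reached 50 UMIs in the higher library and carry exact 95% intervals from counting, open points did not, and the grey band spans ratios under 1.5-fold; Cdk1 and Birc5 lie close to 0 in stroma, and Top2a lies left of 0 in epithelium at -0.58.

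Within cycling cells the genes can be compared without the share of dividing cells, though these cells were picked by the same genes. In stroma they were also made up differently, since cluster 16 held a larger part of the d/d than of the f/f cycling cells. Without cluster 16 the ratio of the summed level in cycling stroma was 0.577 (0.547 to 0.608). The part of this make-up in the values of single genes was not tested. In cycling stromal cells 35 genes reached the minimum, 16 were lower in d/d and 2 were higher, against 28.2% lower and 7.77% higher of all 6872 genes measured there. The genes at both ends were those at the ends in the whole class. Cdk1 had 171 CPM in d/d and 99.6 CPM in f/f (0.78, 0.54 to 1.03) and Birc5 had 347 CPM in d/d and 209.7 CPM in f/f (0.73, 0.56 to 0.90). Lowest were Ccnb1, with 37.4 CPM in d/d and 98.1 CPM in f/f (-1.39, -1.88 to -0.94), Cenpf, with 169.7 CPM in d/d and 383 CPM in f/f (-1.17), and Cdc20 and Kif20a, both at 48.7 CPM in d/d and at 104 CPM in f/f (-1.09). A cell with a UMI of Cenpf made up 56.3% of cycling stroma in d/d and 75.4% in f/f, and a cell with a UMI of Birc5 82.8% in d/d and 62.0% in f/f. Summed by role, the passenger partners had 398 CPM in d/d and 286 CPM in f/f cycling stroma, while the spindle genes had 582 CPM in d/d and 876 CPM in f/f and the midzone and cytokinesis genes 437 CPM in d/d and 704 CPM in f/f.

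In cycling endothelial cells 30 genes reached the minimum and 0 were past 1.5-fold in either direction, against 14.5% lower and 7.18% higher of all 5374 genes. Their log2 ratios ran from -0.36 in Kif2c to 0.57 in Knl1, a kinetochore scaffold. In cycling pericytes 18 genes reached it and 5 were lower, Cdc20, Kif20a, Hmmr, Racgap1 and Aurka, against 33.6% lower and 4.25% higher of all 1671 genes, a share near the background. The d/d side of that comparison is 18 cells.

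**Figure D5:**
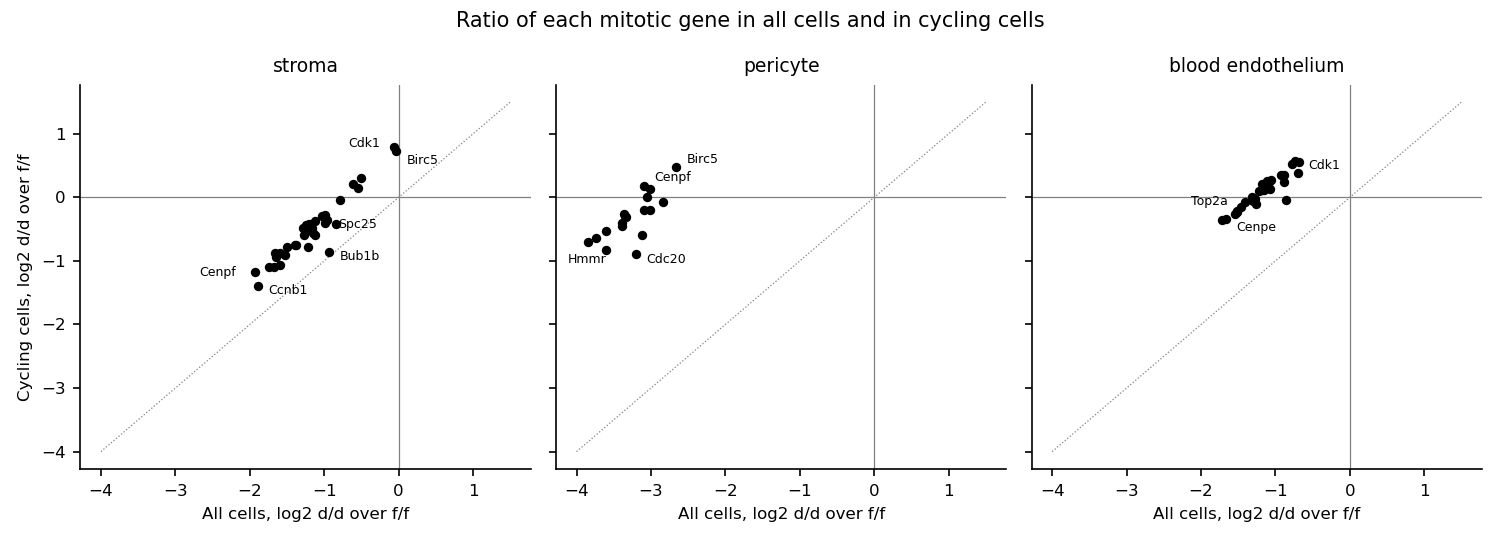
Log2 ratio of CPM, Mettl14 d/d over Mettl14 f/f (1 library each), of each mitotic gene over all cells of a class (horizontal) and in its cycling cells (vertical), for stroma, pericytes and blood endothelium; each point is a gene that reached 50 UMIs in the higher library in both comparisons, and the dotted line marks equal ratios. In endothelium no point is past 1.5-fold on the vertical axis, in pericytes Cdc20, Kif20a, Hmmr, Racgap1 and Aurka lie below that, and in stroma the points span -1.39 in Ccnb1 to 0.78 in Cdk1.

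How closely each gene kept to dividing cells was measured as the share of its UMIs in cells with 4 or more of the other 35 genes. The median over genes with 50 UMIs was 88.9% in d/d and 89.0% in f/f stroma, 84.0% in d/d and 95.6% in f/f pericytes, 94.6% in d/d and 95.7% in f/f endothelium, and 98.3% in d/d epithelium. Bub1b, a checkpoint kinase, was the lowest in stroma, at 51.8% in d/d and 78.2% in f/f. In smooth muscle it was also the 1 gene of the 4 measured that was higher, with 92 UMIs in 85 cells and 10.6 CPM in d/d, and 14 UMIs and 6.98 CPM in f/f (0.60, with an interval of -0.22 to 1.52 that includes no difference), where 13.9% of all genes were higher and 11.1% lower. None of its 92 d/d UMIs lay in a cell with 4 of the others, but this held for every mitotic gene in d/d smooth muscle. The 3 cycling d/d cells there had exactly 4 of the genes each, so the value does not set Bub1b apart. The other 3 genes measured in smooth muscle, Cenpf, Ube2c and Top2a, were lower, and 75.5% of the f/f UMIs of all mitotic genes in this class came from its 6 cycling cells. Cenpa, in macrophages, had 5.45% of its d/d UMIs in such cells.

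Genes of other cell cycle steps were read beside the mitotic ones. Of 30 S-phase and replication genes in stroma, 3 were higher and 7 lower in d/d, with a median log2 ratio of -0.22, near the -0.16 of all genes. Within cycling stromal cells 8 of 26 were higher and 0 lower, with a median of 0.29 for the list and -0.30 for all genes, among them Fen1, a flap endonuclease, with 90.5 CPM in d/d and 28.2 CPM in f/f (1.68), and Gins2, a helicase subunit, with 76.6 CPM in d/d and 27.6 CPM in f/f (1.47). Cells with 2 or more S-phase genes made up 93.1% of the cycling stromal cells in d/d and 89.3% in f/f, with a median of 16 such genes per cell in d/d and 6 in f/f. These values of cycling stroma were taken at the unequal depths and unequal parts of cluster 16 given above. In pericytes 11 of 14 S-phase genes were lower, against 21.9% of all genes, with Rrm2, a ribonucleotide reductase subunit, at -2.66 and Mcm5, a subunit of the replicative helicase, at -2.39. In blood endothelium 11 of 26 were lower and 2 higher, against 11.1% lower and 11.3% higher of all genes, and in epithelium 5 of 11 were higher, against 17.3% of all genes.

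A further 63 genes of G2 and mitosis lay mostly in the same direction as the 36. In stroma 35 of 62 measured were lower and 3 higher, where 20.5% of all genes were lower, and in pericytes 23 of 26 were lower and 1 higher, where 21.9% of all genes were lower. In endothelium 35 of 47 were lower and 1 higher, where 11.1% of all genes were lower, and in epithelium 16 of 25 were higher, where 17.3% of all genes were higher. Mad2l1, a spindle checkpoint gene, was among the 3 higher in stroma, at 48.3 CPM in d/d and 17.1 CPM in f/f.

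Of 11 regulators of mitotic genes, 2 were lower and 0 higher in stroma, a share near the 20.5% of all stromal genes that were lower. Foxm1, which drives them at the approach to mitosis, had 5.07 CPM in d/d and 8.24 CPM in f/f stroma (-0.70). Within cycling stromal cells it was level, at 45.3 CPM in d/d and 45.4 CPM in f/f. Foxm1 was at -3.10 in pericytes. Ccnd1, cyclin D1, which drives cells through G1, had 9.15 CPM in d/d and 37.0 CPM in f/f stroma (-2.02). In epithelium it was higher, with 139 CPM in d/d and 20.3 CPM in f/f (2.77). Mybl2, which encodes B-MYB, was at 1.92 CPM in d/d and 2.19 CPM in f/f stroma (-0.19, -0.91 to 0.48).

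Cdkn1a, the CDK inhibitor p21, was high in d/d also in cells that carried mitotic transcripts. In cycling stroma it stood at 221 CPM in d/d and 26.5 CPM in f/f, with a UMI in 66.7% of d/d and 17.0% of f/f cells, and in the other stromal cells at 264 CPM in d/d and 14.2 CPM in f/f. In pericytes cycling cells had 142 CPM in d/d and 6.11 CPM in f/f, and the others 499 CPM in d/d and 20.5 CPM in f/f. In endothelium cycling cells had 178 CPM in d/d and 37.5 CPM in f/f, and the others 296 CPM in d/d and 35.5 CPM in f/f. In epithelium cycling cells had 104 CPM in d/d and 3.79 CPM in f/f, the f/f value being 1 UMI. Within d/d, cycling cells had less Cdkn1a than the other cells of their class in stroma, pericytes and endothelium, with counting intervals that did not overlap. Those intervals leave out differences between cells. The other cells came in part from clusters with few or no cycling cells, such as the pericyte cluster led by Mustn1 and Rasl11a. The part of this in the Cdkn1a values was not tested. In d/d stroma the intervals were 195 to 250 CPM in cycling and 255 to 273 CPM in other cells. In f/f stroma the order was the opposite, with 26.5 CPM in cycling and 14.2 CPM in other cells. In d/d epithelium cycling cells were the higher ones, at 104 CPM (90.8 to 118) against 88.2 CPM (75.1 to 103) in the other cells, with intervals that overlap.

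Among all other genes, the 10 with the highest ratio of cycling to other stromal cells were taken in each library. In d/d they were Mxd3, Aunip, Pbk, Hist1h3c, Pclaf, Hist1h1b, Hist1h2ae, Tk1, Hist1h2ap and Spc24. In f/f they were Esco2, Sapcd2, Mxd3, Troap, Pif1, Kif18b, Depdc1a, Kif14, Kifc1 and Ankle1. Some ranks rest on few UMIs in the other cells, 1 for Mxd3 and Aunip in d/d and 3 for Sapcd2 and Pif1 in f/f. The minimum of 50 UMIs was counted over 87 d/d and 447 f/f cells, so a gene of the f/f list such as Kif14, with 11 UMIs in d/d cycling stroma, could not enter the d/d list, and the lists were not compared.

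Macrophages or monocytes and dendritic cells held few cycling cells, whereas natural killer or innate lymphoid cells held many in f/f. Macrophages or monocytes had 2 of 292 cycling cells in d/d and 7 of 228 in f/f, and dendritic cells 10 of 153 in d/d (6.54%) and 22 of 172 in f/f (12.8%), with ratio intervals that included 1. The summed level in dendritic cells was 484 CPM in d/d and 1233 CPM in f/f (ratio 0.392, 0.346 to 0.445), and in their cycling cells 3171 CPM in d/d and 5197 CPM in f/f (0.610, 0.530 to 0.701). These 2 intervals count UMIs, many of them from the same 10 d/d and 22 f/f cells, and leave out differences between cells. They are therefore no firmer than the intervals of the share. In dendritic cells Ube2c had 35.8 CPM in d/d and 124.5 CPM in f/f (-1.80). Natural killer or innate lymphoid cells had 6 of 37 cycling cells in d/d (16.2%) and 132 of 223 in f/f (59.2%), with the summed level in cycling cells at 5037 CPM in d/d and 5065 CPM in f/f. That class had under 100 cells in d/d and was not compared further. The same holds for T cells, with under 100 cells in f/f, where 6 of 257 d/d and 6 of 52 f/f cells were cycling.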

How the data were processed

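Raw UMI counts per gene and barcode were used as deposited by the authors, without normalization, per the file headers. Libraries were made with a droplet kit that reads the 3′ end of transcripts, per the labels' protocols. Cell Ranger 3.0.1 and mm10 are named per the submitters' processing notes, whereas the matrix headers name cellranger 6.0.1. No barcode in either matrix had fewer than 500 UMIs. The members and lists were chosen with earlier results of these data known.

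Cells with at least 1000 UMIs, 500 genes and at most 20% mitochondrial UMIs were kept. Scrublet scored doublets in each library. Its automatic threshold marked 400 d/d and 0 f/f barcodes, so the highest-scoring barcodes at 0.8% per 1000 were marked instead, and 348 d/d and 515 f/f were removed. Cells were clustered by Leiden at resolution 1 (scanpy 1.11.5, leidenalg 0.10.2, igraph 0.11.9; 2000 variable genes, 30 components, 15 neighbours) without the cell cycle genes, and clusters were named from marker lists. Epithelium was clustered again at resolution 0.5. A sub-cluster of 21 d/d and 106 f/f cells led by stromal genes was set aside after its values had been seen.

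CPM is the sum of a gene's UMIs over the cells of a class in a library, relative to all UMIs of those cells. A class was compared if each library had 100 or more of its cells, and its cycling cells if each library had 10 or more. Intervals at 95% were Clopper-Pearson for shares, exact Poisson for sums, and exact conditional for ratios. A count of 0 was read as a limit of 3 counts. To be called higher or lower, a gene needed a 1.5-fold difference and 50 UMIs where it was higher. The call rule and intervals were tested on simulated data. The rule for named genes was all 36 members, by value where they reached that minimum, with the 6 largest and 6 smallest ratios per class by the interval bound nearest 1 in full; the text gives each member in at least 1 class and prints fewer of them in full. Up to 4 genes per list were named by the same order, with Cdkn1a, Foxm1, Mybl2, Mettl14, Pcna and Ccnd1, and the 10 genes highest in cycling over other stromal cells. Settings were varied as given in the closing section, with TMM factors from edgeR 4.0.16. Clustering with 200 further genes left out, the sub-cluster kept, cluster 16 left out and Top2a left out were chosen after the data had been seen.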

Additional observations from a re-analysis of the deposited data

Results flagged for a closer look

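The epithelial cycling share ran opposite to those of stroma, pericytes, blood endothelium and smooth muscle. Its ratio of d/d to f/f was 6.06, against 0.536 in stroma, 0.0734 in pericytes (0.105 in their cluster 4), 0.322 in blood endothelium and 0.152 in smooth muscle. The summed level of the mitotic genes did the same, with a log2 ratio of 1.74 in epithelium, -1.13 in stroma, -2.93 in pericytes (-2.42 in their cluster 4), -1.17 in blood endothelium and -2.82 in smooth muscle. Each class had 1 library per genotype, so the difference between classes was not tested.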

How the results depend on the processing

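Of 212 values recomputed under other settings, 172 stayed within the counting interval (for counts of genes, within 1.5 times), 39 moved further and 1 reversed. The reversed value was the level in cycling epithelium, at 0.827 with the sub-cluster led by stromal genes kept, where the summed epithelial level ratio was 1.84. The values here are ratios of d/d to f/f, in the order named. TMM factors raised ratios by 1.03 to 1.27 times, to 0.492 in stroma, 3.70 in epithelium, 0.152 in pericytes, 0.509 in macrophages and 0.497 in dendritic cells, and to 0.814 in cycling stroma and 1.07 in cycling pericytes. With marked doublets kept, levels were 0.485 in stroma, 2.82 in epithelium, 0.143 in pericytes and 0.313 in dendritic cells, and in cycling cells 0.769 in stroma, 1.88 in epithelium, 0.774 in pericytes and 1.13 in blood endothelium. Without cluster 16 the stromal share was 0.386, the level 0.281 and the level in cycling cells 0.577. With 3 genes needed the epithelial share was 2.39 and the cycling stromal level 0.827; with 6 needed the shares were 16.5 in epithelium and 0 in smooth muscle, and the cycling levels 0.666 in stroma and 1.06 in pericytes. Without Top2a the cycling stromal level was 0.705. Thinning gave shares of 0 in smooth muscle and 0.437 in blood endothelium. Smooth muscle and macrophage levels were 0.448 and 0.674 with cell cycle genes kept in the clustering, 0.164 and 0.704 with at least 2000 UMIs per cell, and 0.1002 and 0.677 with each library clustered separately, and the macrophage level was 0.244 with 200 further genes left out. Totals without mitochondrial and ribosomal protein genes gave 3.86 in epithelium. The 14 genes higher in epithelium became 33 with no minimum of UMIs and 7 with at least 100, and the 29 lower in pericytes became 17 with at least 100. The cause of these moves was not tested. No paired analysis was possible because each genotype had 1 library, and no library could be left out for the same reason. The number of cycling cells limits smooth muscle (3 in d/d, 6 in f/f), macrophages (2 in d/d, 7 in f/f) and epithelium (10 in f/f). The marked doublets, removed by a rate and not by a working threshold in f/f, were cycling in 6.03% of d/d and 22.1% of f/f.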

Other observations

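Cyclin D genes, which act in G1, did not follow the mitotic genes in every class. Ccnd2, cyclin D2, had 280.1 CPM in d/d and 42.7 CPM in f/f blood endothelium, a log2 ratio of 2.71, while all 34 mitotic genes measured there were lower in d/d. In pericytes Ccnd2 had 442 CPM in d/d and 261 CPM in f/f (0.76), and in stroma 158 CPM in d/d and 153 CPM in f/f (0.05). Pcna, the sliding clamp of replication, stood at 204 CPM in d/d and 97.1 CPM in f/f blood endothelium (1.07), at 97.9 CPM in d/d and 63.8 CPM in f/f stroma (0.62) and at 132 CPM in d/d and 115 CPM in f/f pericytes (0.20). In endothelial cells below the threshold for cycling, Pcna had 184 CPM in d/d and 58.2 CPM in f/f. No test across animals was possible for these values.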
